A study of Oryzias latipes with 20 samples.

Results

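The genes described here are 54 genes of the endoplasmic reticulum (ER) and the early secretory pathway, out of 22615 genes in a transcriptome table of the medaka (Oryzias latipes) brain. They were chosen by symbol: the ER stress sensors and transcription factors atf6, xbp1 and ern1, the ER chaperones and disulfide isomerases, the signal recognition particle, the Sec61 translocon and its partners, the signal peptidase complex, the oligosaccharyltransferase, genes of ER-associated degradation, COPII coat genes, and chac1. A mean of at least 1 FPKM over the 20 libraries was also required, and all 54 genes whose symbol matched met it. The lowest were dnajc30, with a mean of 2.848 FPKM, and pdia5, with 4.016 FPKM. dnajc30 matched by spelling alone, because its symbol begins with that of dnajc3, and it is kept apart from the chaperones below. FPKM counts sequenced fragments relative to transcript length and to all fragments of a library, so levels of different genes are set side by side per unit of length. Of the 54 genes, 40 carried a cellular component term in the deposited table, and 21 of these 40 (52.5%) had a term naming the endoplasmic reticulum, against 238 of 7611 annotated genes among those tested (3.13%).

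Proteins destined for secretion or for membranes enter the ER through the Sec61 channel, are cut by signal peptidase, receive N-linked glycans, and fold with the help of lumenal chaperones and disulfide isomerases. When unfolded protein builds up, the ER membrane sensors encoded by ern1, atf6 and eif2ak3 raise the synthesis of chaperones, translocation machinery and degradation factors through the transcription factors xbp1, atf6 and atf4, as known from mammals. Neuroendocrine cells of the hypothalamus and the hormone cells of the pituitary carry a heavy load of secretory protein, and COPII-coated vesicles take that cargo from the ER to the Golgi apparatus.

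RNA came from a part of the brain that joined hypothalamus, pituitary and the ventral side of the telencephalon. All fish were held under a constant photoperiod, and samples were taken on days 0, 7, 30, 60, 90, 120 and 150 after a transition to conditions that the labels call LW and do not spell out. There were 3 samples per day and 2 on day 60, so 20 in all. The labels give no strain, age, sex or hour of sampling. They name separate samples without saying whether these were separate fish, so p-values measure the spread between samples. Total FPKM ran from 374770 to 405678 per library. FPKM does not give the read depth, which is unknown, so precision comes from how many samples each day had. Markers of the labelled tissue were present: 16 of 16 hypothalamus markers and 7 of 7 telencephalon markers found in the table had a mean of at least 1 FPKM, as did 4 of 5 pituitary hormone genes, the other being prl. The summed level of the 5 hormone genes was uneven, at 135.3 FPKM in day 60 replicate 1 and 4905 FPKM in day 150 replicate 2, against 704 to 2963 FPKM in the remaining libraries. In such bulk tissue, fewer cells of a type and less RNA per cell cannot be told apart.

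Levels per length differed widely among the 54 genes. The highest was chac1, which encodes a gamma-glutamylcyclotransferase that breaks down glutathione and is known in mammals as a target of the ATF4 arm of the stress response, with a mean of 216.2 FPKM. Next came sec61g, the small gamma subunit of the Sec61 channel, at 124.5 FPKM, the lectin chaperone canx (calnexin) at 83.59 FPKM, xbp1 at 82.4 FPKM and hspa5 (the Hsp70 chaperone BiP) at 79.16 FPKM. By role, the 19 genes of signal recognition, translocation and signal peptidase had the widest base of high levels, with a median of the gene means of 40.31 FPKM and a range of 12.77 to 124.5 FPKM. The 4 oligosaccharyltransferase genes had a median of 39.65 FPKM, and the 3 sensors and transcription factors one of 31.61 FPKM. The 9 lumenal chaperones were at a median of 19.59 FPKM and the 5 disulfide isomerases and oxidases at 18.47 FPKM. Lower still were the 6 COPII coat genes, with a median of 12.71 FPKM, and the 6 degradation genes, with 12 FPKM. Together the 54 genes made up 0.4588% to 0.5638% of the total FPKM of a library.

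Over time, most of the 54 genes were lowest on day 0 or 7 and highest on day 30, 90 or 120. Day 60 was the highest for 3 genes and the lowest for 7. The differences were small and no single gene passed the threshold of an adjusted p of 0.05. The day 0 mean was the lowest of the 7 day means for 25 genes and the day 7 mean for 16, so 41 of 54 (75.9%) had their lowest mean on one of these days, against 33.4% of all 15947 genes tested. The day 120 mean was the highest for 20 genes, the day 90 mean for 13 and the day 30 mean for 11, so 44 of 54 (81.5%) peaked on one of these 3 days, against 41.6% of all genes. Both held for 33 genes (61.1%), against 16.7% of all genes. The days in these sets were those on which the 54 genes most often had their lowest or highest mean. Part of the excess over all genes follows from that choice. The log2 range of the day means had a median of 0.29 among the 54 genes and 0.3 among all genes. Their residual SD within days had a median of 0.131 on the log2 scale, against 0.157 for all genes.

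**Figure D1:**
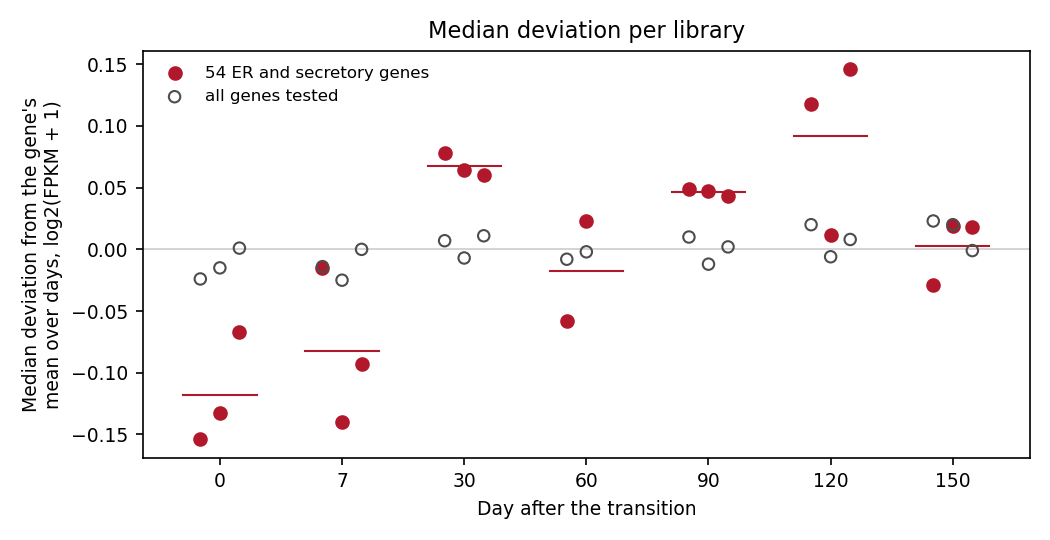
Median deviation of the 54 ER and secretory genes (filled) and of all genes tested (open) from each gene's mean over days, on the log2(FPKM + 1) scale, for each of the 20 libraries; the lines are the day means of the filled points. The day 0 libraries sit between -0.154 and -0.067 and the day 30 libraries between 0.06 and 0.078, while the day 120 libraries spread between 0.012 and 0.146.

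Library by library, the median deviation of the 54 genes from their own mean over days was -0.154, -0.133 and -0.067 on day 0, -0.015, -0.14 and -0.093 on day 7, 0.078, 0.064 and 0.06 on day 30, -0.058 and 0.023 on day 60, 0.049, 0.047 and 0.043 on day 90, 0.118, 0.012 and 0.146 on day 120, and -0.029, 0.019 and 0.018 on day 150. The libraries of days 0 and 7 all lay below 0, those of days 30, 90 and 120 all lay above 0, and days 60 and 150 held libraries on both sides. The number of genes above their own mean was 46, 29 and 47 of 54 in the day 120 libraries and 10, 6 and 13 of 54 in the day 0 libraries. Replicate 2 of day 120 therefore stood closer to the middle than its companions did.

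Tests used limma on log2(FPKM + 1) for the 15947 genes averaging 1 FPKM or more, so differences of low genes are understated, and p-values were adjusted over all of these genes. In the F test over the 7 days, 0 of the 54 genes passed, against 0.0941% of all genes, and 16 of 54 had an unadjusted p under 0.05, against 13.1% of all genes. In the F test over days 7 to 150, 0 passed, against 0.0941%, and 13 of 54 had an unadjusted p under 0.05, against 13%. The smallest adjusted p in the F test over the 7 days were 0.122 for sec24d, 0.139 for sec23ip, 0.164 for chac1, 0.18 for pdia4 and 0.183 for pdia6. The 6 comparisons with day 0 share its 3 libraries, so they are not independent of each other.

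Of the comparisons with day 0, day 120 had the highest median log2 difference. It was 0.188, and all but 2 of the 54 genes, 52 in number, had a positive difference, against a median of 0.02 and 55.1% positive among all genes. None passed the adjusted threshold, which 0.0314% of all genes did, and the smallest adjusted p was 0.085, for sec23ip. At an unadjusted p under 0.05, 24 of 54 were higher and 0 lower, against 6.08% of all genes higher. For 23 of the 54 genes, every day 120 library lay above every day 0 library, against 9.12% of all genes. Taking the level of pituitary transcription factors into the fit left 18 genes higher at an unadjusted p under 0.05, with a median of 0.187.

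Day 30 against day 0 gave a median log2 difference of 0.181, with 50 of 54 positive, against 0.014 and 53.7% among all genes. No gene passed the adjusted threshold, among the 54 or among all genes (0%), and the smallest adjusted p was 0.174, for sec23ip. At an unadjusted p under 0.05, 21 of 54 were higher, against 5.49% of all genes, and 26 of 54 had libraries that did not overlap, against 9.39%. The count of 21 was not stable: it was 11 without day 0 replicate 1 and 9 with the pituitary transcription factor level in the fit, while the median was 0.16 in that fit.

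Day 90 against day 0 gave a median of 0.164 with 49 of 54 positive, against 0.015 and 54% among all genes. The adjusted threshold was passed by 0 of 54 and by 0% of all genes, with a smallest adjusted p of 0.231 for atf6. At an unadjusted p under 0.05, 17 of 54 were higher, against 5.12%, and 23 of 54 had libraries that did not overlap, against 8.46%.

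**Figure D2:**
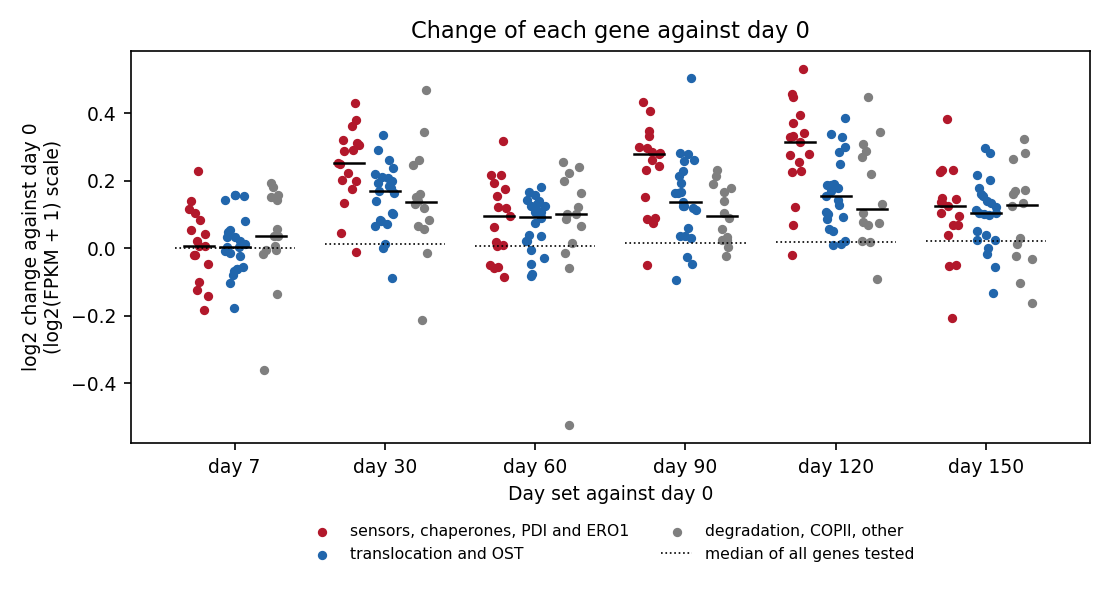
Log2 difference of each of the 54 genes against day 0 on the log2(FPKM + 1) scale, for the 6 later days; each point is a gene, black lines are the medians of the 3 colour groups and dotted lines the median of all genes tested (0.002 on day 7, 0.02 on day 120). The red points (sensors, chaperones, disulfide isomerases and the oxidase) sit mostly above the others on days 30, 90 and 120, and the lowest point is edem1 on day 60, at -0.52.

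Days 60 and 150 were closer to day 0, though for day 60 this held less with a covariate in the fit. Day 60 against day 0 had a median of 0.099 with 42 of 54 positive, against 0.007 and 51.7% among all genes. None of the 54 passed the adjusted threshold, against 0.00627%. At an unadjusted p under 0.05, 2 were higher, against 3.8%, and 1 was lower, against 499 of all 15947 genes. Neither count stood above the share of all genes. The 2 higher were chac1 (log2 difference 0.26) and sec23ip (0.20), and the lower one was edem1 (-0.52). This day rests on 2 libraries, and the median was 0.044 without day 60 replicate 2. Day 60 replicate 1 had the lowest summed level of pituitary transcription factors of all libraries, 21.63 FPKM, beside 34.85 FPKM in replicate 2. With the level of those factors in the fit, the day 60 median was 0.143, where that of day 90 was 0.157. The 2 higher became 1 without day 0 replicate 2 and 6 without day 0 replicate 3. For 16 of 54, both day 60 libraries lay above every day 0 library, against 2107 of all 15947 genes. For 1 of 54 both lay below, against 1838 of all genes. Day 150 against day 0 had a median of 0.117 with 44 of 54 positive, against 0.023 and 56.3% among all genes. Again 0 passed the adjusted threshold, against 0%, and 7 of 54 were higher at an unadjusted p under 0.05, against 6.4% of all genes. The 7 became 3 without day 0 replicate 2. Every day 150 library lay above every day 0 library for 15 of 54, against 1488 of all 15947 genes, and below for 1, against 824. Quantile normalization lowered the median to 0.076, and the pituitary transcription factor level in the fit lowered it to 0.085.

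At day 7 the levels of most of these genes were near those of day 0. The median log2 difference of day 7 against day 0 was 0.01 with 32 of 54 positive, against 0.002 and 50.6% among all genes, and without day 7 replicate 1 it was -0.03. None of the 54 passed the adjusted threshold, against 0.0627%, and 2 were higher at an unadjusted p under 0.05, against 4.49%. The 2 were atf6, with a log2 difference of 0.23, and sec23ip, with 0.16. Without day 0 replicate 2 their number was 0, and without day 7 replicate 2 it was 6.

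**Figure D3:**
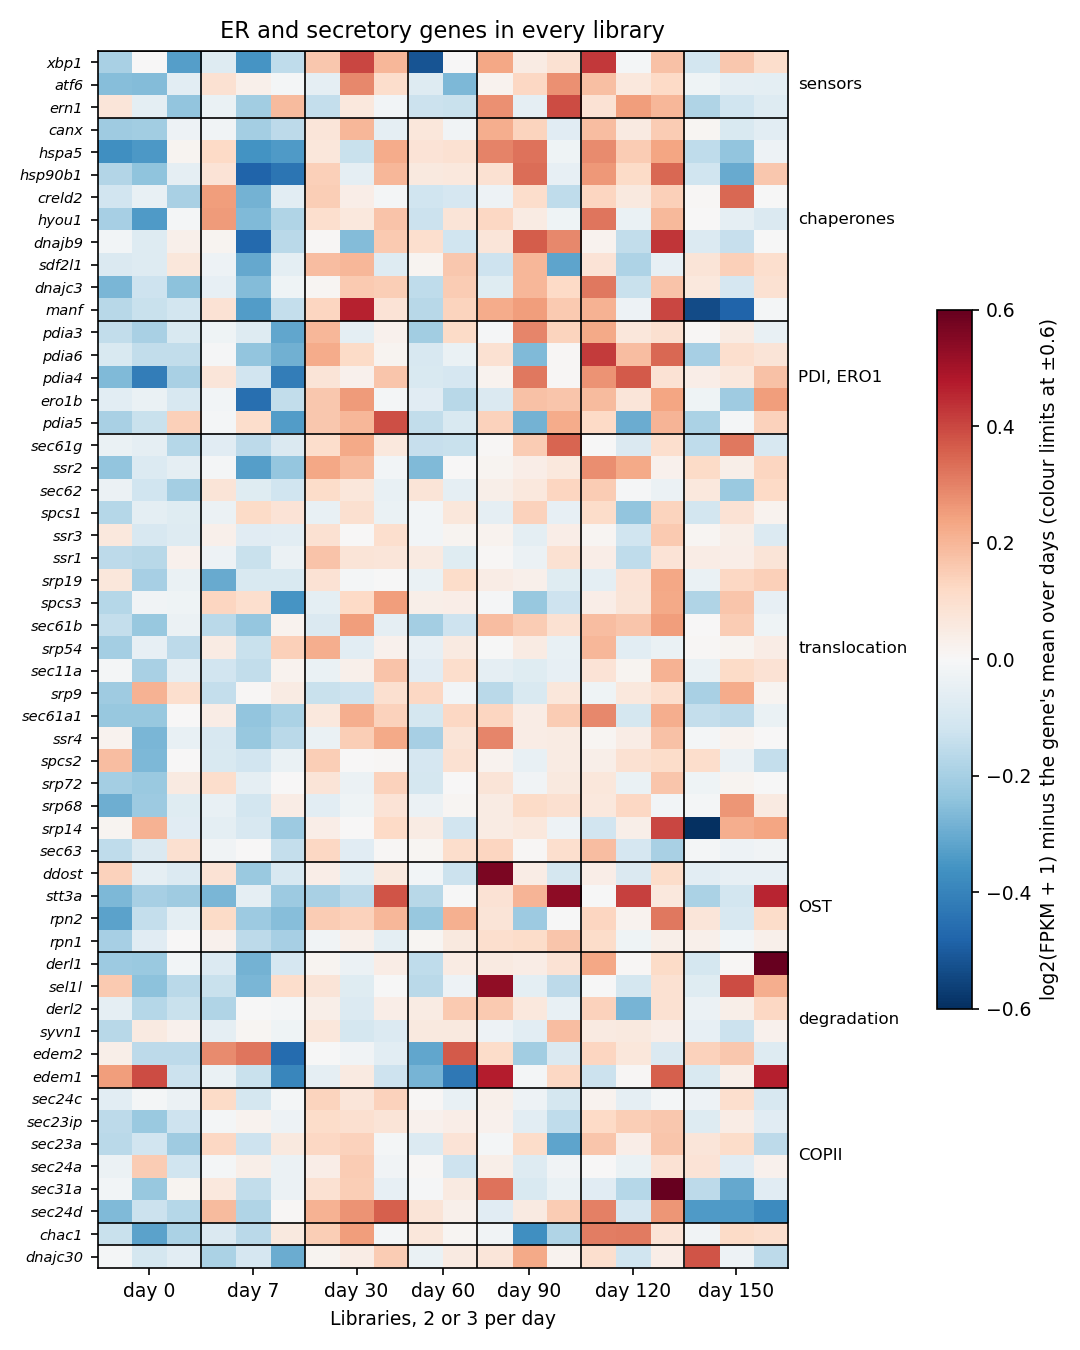
Deviation of each of the 54 genes (rows, by role) from its mean over days in each of the 20 libraries (columns, by day), on the log2(FPKM + 1) scale, with colours limited at 0.6 in either direction. Blue prevails on days 0 and 7 and red on days 30, 90 and 120, and single dark cells mark libraries such as day 90 replicate 1 for ddost (106.14 FPKM) and day 150 replicate 1 for srp14 (8.24 FPKM).

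Among the sensors and transcription factors, xbp1 and atf6 averaged higher on days 30, 90 and 120 than on day 0, at p-values that did not survive adjustment. xbp1 encodes the transcription factor that becomes active when the ern1 ribonuclease splices its messenger. It stood at 70.38, 80.62 and 63.88 FPKM on day 0, 76.26, 62.85 and 72.33 on day 7, 90.3, 106.87 and 92.72 on day 30, 55.88 and 80.74 on day 60, 94.8, 83.49 and 86.02 on day 90, 108.35, 79.99 and 91.22 on day 120, and 74.52, 90.12 and 86.75 on day 150. The day 30 and day 90 libraries all lay above those of day 0, and day 60 held the lowest library. Its log2 difference was 0.43 ± 0.138 (SE) for day 30 against day 0 (limma, adjusted p 0.381) and 0.37 for day 120 against day 0 (adjusted p 0.422). With the pituitary transcription factor level in the fit, the day 30 difference of xbp1 was 0.28. Values per gene do not tell the spliced from the unspliced form.

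atf6, which encodes a sensor whose cytosolic part is released to act as a transcription factor, stood at 26, 25.94 and 29.85 FPKM on day 0, 33.37, 31.88 and 30.99 on day 7, 30.05, 38.32 and 33.71 on day 30, 29.57 and 25.75 on day 60, 31.73, 34.15 and 37.93 on day 90, 35.49, 32.71 and 34.05 on day 120, and 30.68, 30.07 and 29.98 on day 150. All libraries of days 7, 30, 90, 120 and 150 lay above all of day 0, while those of day 60 lay within the day 0 range or just under it. The log2 difference was 0.31 ± 0.087 (SE) for day 120 against day 0, with an adjusted p of 0.312, and 0.33 for day 90 against day 0, with an adjusted p of 0.231. ern1, the kinase and ribonuclease that senses unfolded protein, was the lowest of the 3. It read 9.09, 8.21 and 7.14 FPKM on day 0, 8.33, 7.31 and 9.94 on day 7, 7.71, 9.04 and 8.49 on day 30, 7.78 and 7.76 on day 60, 10.61, 8.26 and 11.6 on day 90, 9.19, 10.42 and 10.03 on day 120, and 7.47, 7.84 and 8.11 on day 150. The day 120 libraries stood above those of day 0, the lowest only just, by 0.25 on the log2 scale (adjusted p 0.527). The other days overlapped day 0, among them day 90, whose log2 difference was slightly larger, at 0.28.

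The lumenal chaperones were among the roles with the larger differences. Their median log2 difference was 0.252 for day 30, 0.262 for day 90 and 0.33 for day 120, each against day 0, with 8 of 9 genes positive each time and 4, 4 and 6 of 9 higher at an unadjusted p under 0.05, against 5.49%, 5.12% and 6.08% of all genes. hspa5, the central ER Hsp70 that also holds the sensors inactive, stood at 60.48, 61.49 and 79.28 FPKM on day 0, 85.27, 61.04 and 61.84 on day 7, 82.33, 71.51 and 91.63 on day 30, 83.03 and 83.59 on day 60, 96.48, 98.63 and 77.1 on day 90, 95.75, 87.41 and 92.5 on day 120, and 70.58, 66.4 and 76.89 on day 150. Replicate 3 of day 0 and replicate 1 of day 7 read well above the other libraries of those days, and the day 120 libraries lay above all 6 of them. Its log2 difference was 0.46 ± 0.136 (SE) for day 120 against day 0, with a 95% interval of 0.17 to 0.75 and an adjusted p of 0.322.

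hsp90b1, the ER Hsp90 known as GRP94, followed closely. Its levels were 67.71, 64.53 and 73.73 FPKM on day 0, 81, 54.48 and 56.23 on day 7, 84.59, 73.74 and 87.89 on day 30, 79.72 and 80.03 on day 60, 81.62, 96.82 and 73.87 on day 90, 91.72, 82.92 and 97.38 on day 120, and 70.23, 61.93 and 85.59 on day 150. Every library of days 30, 60, 90 and 120 lay above every day 0 library, the lowest libraries of days 30 and 90 only just. The log2 difference was 0.40 for day 120 against day 0 (adjusted p 0.417) and 0.52 ± 0.144 (SE) for day 120 against day 7 (adjusted p 0.179). manf, which encodes a small ER protein released under stress, stood at 8.67, 8.92 and 9.06 FPKM on day 0, 10.56, 7.62 and 8.84 on day 7, 10.9, 13.95 and 10.51 on day 30, 8.67 and 10.91 on day 60, 11.7, 11.94 and 11.11 on day 90, 11.57, 9.64 and 13.35 on day 120, and 6.49, 6.78 and 9.78 on day 150. All libraries of days 30, 90 and 120 were above all of day 0, and day 150 held the lowest values of the series.

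The other chaperones differed less, or with more spread. canx averaged 91.28 ± 4.32 FPKM on day 120 and 75.12 ± 5.65 FPKM on day 0 (SD, n = 3 each), a log2 difference of 0.28 with an adjusted p of 0.333. hyou1, the nucleotide exchange factor of hspa5, averaged 21.92 ± 2.85 FPKM on day 120 and 17.1 ± 2.08 FPKM on day 0. dnajc3, an Hsp40 co-chaperone of hspa5, averaged 15.82 ± 2.61 FPKM on day 120 and 12.28 ± 0.751 FPKM on day 0, with adjusted p of 0.405. Another Hsp40 co-chaperone, dnajb9, was at 17.41 ± 3.92 FPKM on day 120 and 15.68 ± 0.642 FPKM on day 0, which is within the spread of day 120. creld2, an ER stress-inducible isomerase-like protein, averaged 30.56 ± 0.982 FPKM on day 120 and 26.01 ± 1.41 FPKM on day 0. sdf2l1, a partner of the hspa5 and dnajb11 complex, was the one chaperone with a negative difference, at 14.53 ± 1.43 FPKM on day 120 and 14.71 ± 0.98 FPKM on day 0 (log2 difference -0.02).

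Of the disulfide isomerases, pdia4 and pdia6 had the largest differences on day 120. All 5 genes of this role were positive on days 30, 90 and 120 against day 0, with medians of 0.249, 0.151 and 0.277. pdia4 read 15.01, 13.42 and 15.78 FPKM on day 0, 19.23, 16.73 and 13.42 on day 7, 19.26, 18.57 and 20.53 on day 30, 17.01 and 16.92 on day 60, 18.5, 22.92 and 18.3 on day 90, 22.17, 23.76 and 19.41 on day 120, and 18.77, 19.08 and 20.67 on day 150. Every library from day 30 on lay above every day 0 library. Its log2 difference was 0.53 ± 0.114 (SE) for day 120 against day 0, with a 95% interval of 0.29 to 0.77, the largest of the 54 genes in that comparison (adjusted p 0.159).

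pdia6 read 27.17, 26.08 and 26.08 FPKM on day 0, 28.91, 24.49 and 23.63 on day 7, 34.02, 31.56 and 29.43 on day 30, 27.14 and 28.22 on day 60, 31.05, 23.97 and 29.22 on day 90, 39.16, 33.11 and 37.18 on day 120, and 25.18, 31.24 and 30.71 on day 150. Day 120 stood above days 0, 7, 60, 90 and 150 without overlap. The log2 difference was 0.45 for day 120 against day 0 (adjusted p 0.186), 0.49 ± 0.105 (SE) for day 120 against day 7 (adjusted p 0.0722) and 0.37 for day 120 against day 90 (adjusted p 0.358). pdia3, the partner of the lectin chaperones, averaged 50.17 ± 3.06 FPKM on day 120 and 41.2 ± 1.52 FPKM on day 0, with an adjusted p of 0.415. ero1b, the oxidase that recharges the isomerases, averaged 17.46 ± 1.08 FPKM on day 120 and 14.72 ± 0.296 FPKM on day 0. pdia5 was low throughout, at 4.03 ± 0.89 FPKM on day 120 and 3.767 ± 0.607 FPKM on day 0.

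**Figure D4:**
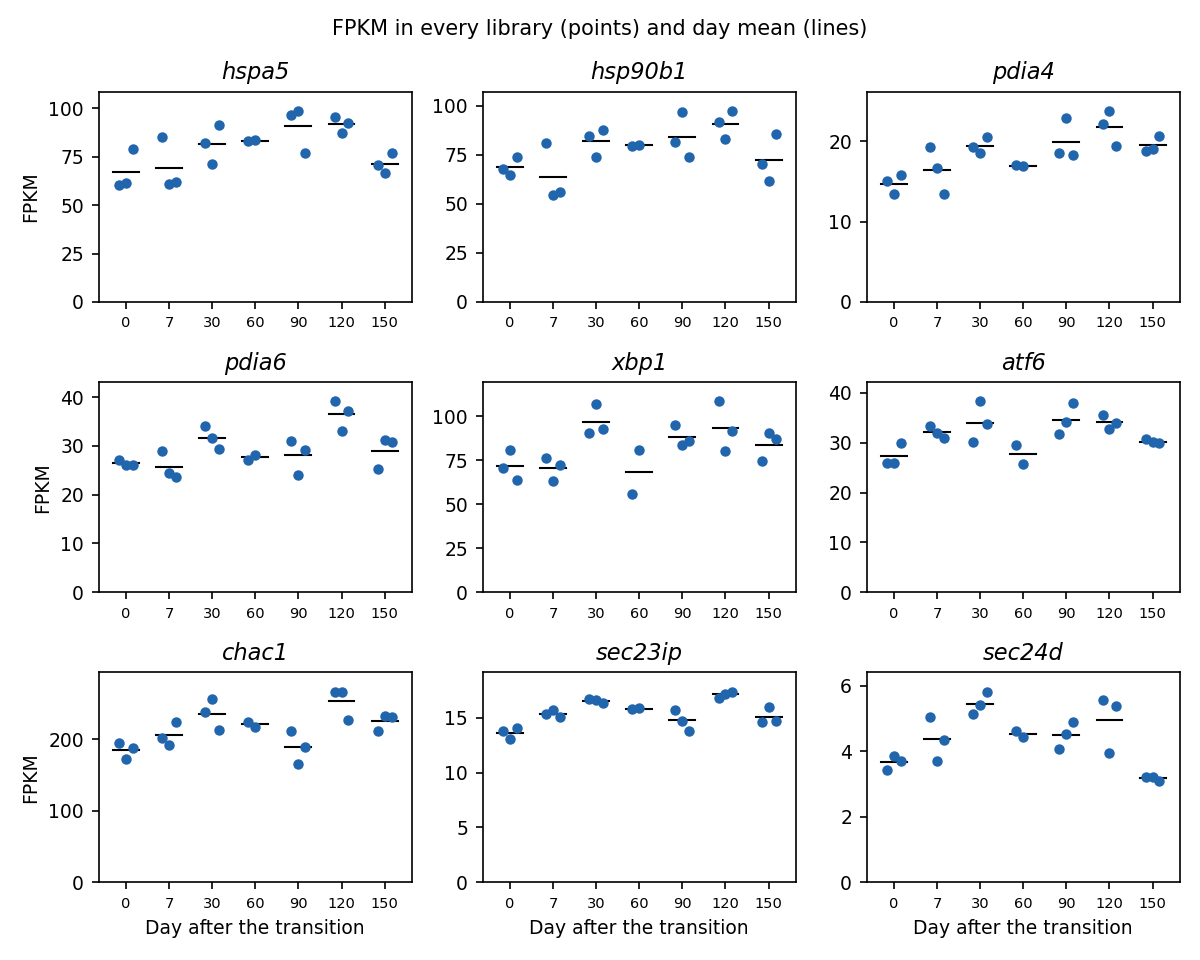
FPKM of hspa5, hsp90b1, pdia4, pdia6, xbp1, atf6, chac1, sec23ip and sec24d in every library (points) with day means (lines), by day after the transition. The sec23ip points are tight within days (16.83 to 17.38 FPKM on day 120, 13.1 to 14.09 FPKM on day 0), chac1 on day 90 (165.98 to 211.84 FPKM) overlaps day 0 (171.81 to 195.54 FPKM), and sec24d on day 150 lies under every other library.

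The 19 genes of signal recognition, translocation and signal peptidase had smaller median differences than the chaperones, and most pointed the same way. Against day 0, 18 of 19 had a positive log2 difference on day 30, with a median of 0.171, 16 of 19 on day 90, with a median of 0.126, and all 19 on day 120, with a median of 0.154. At an unadjusted p under 0.05, 7 of 19 were higher on day 30, 6 on day 90 and 6 on day 120, against 5.49%, 5.12% and 6.08% of all genes. sec61b, the beta subunit of the Sec61 channel, stood at 36.48, 34.4 and 39.35 FPKM on day 0, 35.98, 34.29 and 41.05 on day 7, 37.94, 48.24 and 38.81 on day 30, 34.95 and 37.02 on day 60, 45.99, 44.97 and 43.16 on day 90, 46.05, 45.47 and 48.3 on day 120, and 40.51, 44.93 and 39.6 on day 150. Days 90, 120 and 150 lay above day 0 without overlap, and the log2 difference was 0.34 for day 120 against day 0, with an adjusted p of 0.282.

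The channel-forming subunit sec61a1 averaged 27.14 ± 2.69 FPKM on day 0, 33.37 ± 1.84 FPKM on day 30 and 33.43 ± 4.8 FPKM on day 120. sec61g averaged 115.9 ± 5.77 FPKM on day 0, 139.5 ± 16.9 FPKM on day 90 and 123.8 ± 8.04 FPKM on day 120, and its highest library was day 90 replicate 3, at 157.45 FPKM. The adjusted p for day 120 against day 0 was 0.417 for sec61a1 and 0.841 for sec61g. ssr2, a subunit of the translocon-associated protein complex beside the channel, read 94.96, 91.64 and 79.74 FPKM on day 120 and 66.26, 73.74 and 75.29 FPKM on day 0, without overlap. On the log2 scale it differed by 0.30 for day 120 against day 0 (adjusted p 0.363) and 0.37 for day 120 against day 7 (adjusted p 0.151). sec62 and sec63, which serve post-translational entry, had log2 differences of 0.15 and 0.01 for day 120 against day 0.

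In the signal recognition particle, which brings ribosomes to the ER, srp68 was the member with the smallest p in each comparison with day 0. It read 16.36, 17.31 and 19.26 FPKM on day 0, 19.62, 18.7 and 20.96 on day 7, 19.4, 19.94 and 21.53 on day 30, 19.77 and 20.44 on day 60, 21.02, 22.08 and 21.79 on day 90, 21.25, 22.17 and 20.03 on day 120, and 20.13, 24.58 and 21.11 on day 150. From day 30 on, every library lay above every day 0 library. Its log2 difference was 0.30 ± 0.078 (SE) for day 150 against day 0, with an adjusted p of 0.267. srp9, which belongs to the Alu domain of the particle, had a log2 difference of 0.01 for day 120 against day 0 and -0.09 for both day 30 and day 90 against day 0. Its Alu domain partner srp14 had the widest residual SD of the 54 genes, 0.247, with 8.24 FPKM in day 150 replicate 1 and 18.81 FPKM in day 120 replicate 3. The signal peptidase genes spcs1, spcs2, spcs3 and sec11a had log2 differences of 0.10, 0.11, 0.19 and 0.19 for day 120 against day 0.

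The oligosaccharyltransferase genes, which transfer the N-linked glycan, were positive on days 30, 90 and 120 against day 0, 4 of 4 each time, with medians of 0.154, 0.19 and 0.228. stt3a, the catalytic subunit, read 34.13, 35.85 and 35.51 FPKM on day 0, 34.02, 39.78 and 35.46 on day 7, 36.05, 36.98 and 54.01 on day 30, 36.76 and 41.25 on day 60, 44.02, 47.77 and 60.41 on day 90, 41.24, 55.2 and 43.32 on day 120, and 36.18, 38.21 and 57.1 on day 150. From day 30 on, every library lay above every day 0 library, and in each of days 30, 90, 120 and 150 one library stood well above its companions. The log2 difference was 0.50 for day 90 against day 0 (adjusted p 0.419). rpn1 averaged 38.84 ± 1.05 FPKM on day 90 and 33.42 ± 2.39 FPKM on day 0, and rpn2 averaged 41.3 ± 4.42 FPKM on day 120 and 32.65 ± 3.06 FPKM on day 0. ddost, the remaining subunit, had log2 differences of 0.02 for day 120 and 0.17 for day 90 against day 0. On day 90 it read 106.14 FPKM in replicate 1 beside 73.69 and 66.39 FPKM in the other libraries.

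The degradation genes, whose products draw misfolded protein out of the ER for the proteasome, had the lowest median of these roles on day 120. For day 120 against day 0 their median log2 difference was 0.091 and 5 of 6 were positive, against 55.1% of all genes. An unadjusted p under 0.05 was reached by 0 of 6, against 1509 of all 15947 genes. With only 6 genes, that count does not set the role apart. derl1, a channel component, read 42.08, 35.82 and 38.64 FPKM on day 120 and 30.56, 30.45 and 35.22 FPKM on day 0, a log2 difference of 0.27 with an adjusted p of 0.557. Its day 150 mean rests on 1 library, with 33.03, 35.87 and 55.03 FPKM. The mannosidase-like gene edem1 read 4.53 and 3.98 FPKM on day 60 and 6.98, 7.79 and 5.13 FPKM on day 0, without overlap, at an adjusted p of 0.634. sel1l and syvn1, which form the core ubiquitin ligase complex, both had a log2 difference of 0.08 for day 120 against day 0. edem2 and derl2 had differences of 0.13 and 0.10.

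Among the COPII coat genes, sec23ip gave the smallest adjusted p of all 54 genes against day 0. Its product binds Sec23 at ER exit sites and is not itself part of the coat lattice. It read 13.75, 13.1 and 14.09 FPKM on day 0, 15.29, 15.66 and 15.08 on day 7, 16.73, 16.59 and 16.35 on day 30, 15.75 and 15.88 on day 60, 15.74, 14.73 and 13.78 on day 90, 16.83, 17.2 and 17.38 on day 120, and 14.56, 15.94 and 14.69 on day 150. All libraries of days 7, 30, 60, 120 and 150 lay above day 0, and day 90 overlapped it. Its log2 difference was 0.31 ± 0.057 (SE) for day 120 against day 0, with a 95% interval of 0.19 to 0.43 and an adjusted p of 0.085. Its residual SD of 0.05 was the smallest of the 54 genes.

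sec24d, one of the cargo-binding subunits, read 3.43, 3.87 and 3.72 FPKM on day 0, 5.06, 3.7 and 4.35 on day 7, 5.15, 5.41 and 5.83 on day 30, 4.61 and 4.43 on day 60, 4.07, 4.52 and 4.91 on day 90, 5.56, 3.96 and 5.39 on day 120, and 3.21, 3.21 and 3.1 on day 150. Days 30, 60, 90 and 120 lay above day 0 and day 150 below it, all without overlap. The log2 difference was 0.47 ± 0.111 (SE) for day 30 against day 0 (adjusted p 0.223) and -0.51 for day 150 against day 120 (adjusted p 0.302). The other cargo-binding subunits sec24a and sec24c both differed by 0.02 for day 120 against day 0. sec23a, of the inner coat, averaged 16.1 ± 0.84 FPKM on day 120 and 13.01 ± 0.495 FPKM on day 0. The outer coat gene sec31a differed by 0.22 for day 120 against day 0, with 12.8 FPKM in day 120 replicate 3 beside 7.28 and 6.73 FPKM in the other libraries of that day.

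chac1, described above as the gene with the highest level, read 195.54, 171.81 and 188.14 FPKM on day 0, 202.09, 191.81 and 223.78 on day 7, 238.14, 255.9 and 213.08 on day 30, 224.93 and 216.83 on day 60, 211.84, 165.98 and 189.39 on day 90, 266.11, 266.86 and 227.28 on day 120, and 211.77, 232.92 and 230.75 on day 150. Days 30, 60, 120 and 150 lay above day 0 without overlap, and day 90 did not. Its log2 difference was 0.45 ± 0.097 (SE) for day 120 against day 0 (adjusted p 0.159) and 0.02 for day 90 against day 0 (adjusted p 0.969). dnajc30, which is known in mammals as a mitochondrial protein, averaged 2.857 ± 0.294 FPKM on day 120 and 2.673 ± 0.121 FPKM on day 0.

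Days 90 and 120 differed in few of these genes. The median log2 difference of day 120 against day 90 was 0.03 with 34 of 54 positive, against 0.006 and 51.7% among all genes, and it ran from 0.004 without day 120 replicate 1 to 0.079 without day 120 replicate 2. None of the 54 passed the adjusted threshold, against 0.0251%, and 3 were higher at an unadjusted p under 0.05, against 3.87% of all genes, a number that was 5 without day 120 replicate 2. These were chac1 (0.42, adjusted p 0.263), sec23ip (0.21, adjusted p 0.356) and pdia6 (0.37).

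Day 120 was also set against day 7, which shares no library with day 0. The day 120 libraries are the same in both comparisons, so these are not independent of each other. The median log2 difference was 0.172 with 51 of 54 positive, against 0.021 and 55% among all genes. None of the 54 passed the adjusted threshold, against 0.188% of all genes, and 19 were higher at an unadjusted p under 0.05, against 7.19%. For 18 of 54, the day 120 libraries all lay above those of day 7, against 10% of all genes. The total FPKM was lowest in the day 7 libraries, and with each library rescaled to the same total the median was 0.103, that of all genes was -0.041 and the count of 19 became 10. The count was also 11 without day 7 replicate 2 and 12 without day 120 replicate 3.

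After day 120 the levels were lower. The median log2 difference of day 150 against day 120 was -0.092 with 13 of 54 positive, against 0.003 and 50.8% among all genes, and -0.052 without day 120 replicate 3. None of the 54 passed the adjusted threshold, against 0% of all genes, and 8 were lower at an unadjusted p under 0.05, against 4.17% of all genes, a number that was 5 without day 150 replicate 1. The largest differences were those of manf, which read 6.49, 6.78 and 9.78 FPKM on day 150 and 11.57, 9.64 and 13.35 FPKM on day 120 (log2 difference -0.54, adjusted p 0.384), and of sec24d. hspa5 followed with -0.36 (adjusted p 0.476), hsp90b1 with -0.33, pdia6 with -0.32, and ern1 with -0.30. Replicate 3 of manf and of hsp90b1 on day 150 overlapped the day 120 libraries. sec31a also differed by -0.32, but it read 6.8, 6.02 and 7.28 FPKM on day 150 and 7.28, 6.73 and 12.8 FPKM on day 120, so that apart from day 120 replicate 3 the days overlapped.

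As a straight line over all days, the slope per 30 days had a median of 0.022 on the log2 scale with 49 of 54 positive, against 0.005 and 57.1% among all genes. None of the 54 passed the adjusted threshold, against 0.00627%, and 12 were higher at an unadjusted p under 0.05, against 7.37% of all genes. The steepest were pdia4 and stt3a, both at 0.07 (adjusted p 0.212 for pdia4 and 0.346 for stt3a), and then derl1, at 0.06 (adjusted p 0.254). Rescaling to the same total lowered the median slope to 0.013, as did leaving day 0 out of the slope. The count of 12 became 19 without day 150 replicate 1 and 9 without day 0 replicate 2. With the pituitary transcription factor level in the fit it was 8.

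Other genes of the same pathways were taken as lists, and no gene of these passed the adjusted threshold in any comparison. For day 120 against day 0, other genes of transport between ER and Golgi had a median log2 difference of 0.185 with 23 of 24 positive and 11 higher at an unadjusted p under 0.05, where all genes were 55.1% positive and 6.08% higher. The cargo receptor lman1 (0.46) and the outer COPII coat gene sec13 (0.36) had the smallest p, each at an adjusted p of 0.185. Other lumenal folding factors had a median of 0.101 with 19 of 22 positive and 4 higher, among them the membrane thioredoxin genes tmx3 (0.24) and tmx1 (0.19). Other translocation and glycosylation genes had a median of 0.136 with 23 of 31 positive and 3 higher, led by the mannosyltransferase alg1 (0.42, adjusted p 0.247). Other degradation genes had a median of 0.13 with 9 of 11 positive and 3 higher, led by the segregase vcp (0.28).

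Against the same shares of all genes, 55.1% positive and 6.08% higher at an unadjusted p under 0.05, lists mostly from outside the ER were also counted for day 120 against day 0. The secretory granule genes had a median of 0.175 with 10 of 11 positive and 4 higher, led by the granin scg2 (0.33, adjusted p 0.355). The cytosolic and mitochondrial heat shock genes had a median of 0.096 with 7 of 11 positive and 2 higher, which were the mitochondrial chaperonins hspe1 (0.28) and hspd1 (0.34). The stress-induced translation arm, to which chac1 is tied in mammals, had a median of 0.107 with 6 of 8 positive and 1 higher, and for day 30 against day 0 its median was -0.071 with 3 of 8 positive. This list includes the ER membrane sensor gene eif2ak3, with a mean of 6.794 FPKM. atf4, the transcription factor of that arm, read 200.08, 183.08 and 176.52 FPKM on day 120 and 179.27, 174.36 and 176.93 FPKM on day 0, which overlap. asns, an asparagine synthetase, read 10.64, 9.39 and 9.89 FPKM on day 120 and 8.02, 9.35 and 7.42 FPKM on day 0, without overlap. For day 120 against day 7, where the 54 genes had a median of 0.172, these lists were also mostly positive. The heat shock genes had a median of 0.191 with 11 of 11 positive and 4 higher. The translation arm had 0.205 with 6 of 8 positive and 1 higher, and the granule genes 0.132 with 10 of 11 positive and 4 higher. Among all genes, 55% were positive and 7.19% higher there.

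Near relatives of the 54 genes that carry a locus number in place of a symbol were identified by the protein description in the deposited table, and 11 of 14 had a mean of at least 1 FPKM. Their median log2 difference for day 120 against day 0 was 0.149, with 9 of 11 positive. At an unadjusted p under 0.05, 4 were higher, against 6.08% of all genes, and 1 was lower, against 540 of all 15947 genes. The lower one was LOC101157158, described as a TMX3-like disulfide isomerase, which read 0.16, 0.41 and 0.2 FPKM on day 120 and 5.58, 0.79 and 1.69 FPKM on day 0 (log2 difference -1.34, adjusted p 0.319). Its mean over all libraries, 1.2415 FPKM, was close to the limit of 1 FPKM. On day 0, 1 library stood well above its companions. The 3 calreticulin genes, lectin chaperones that work beside canx, were among these relatives. LOC101162115 read 138.53, 123.41 and 141.33 FPKM on day 120 and 108.9, 99.23 and 117.35 FPKM on day 0. LOC101169735 read 28.33, 23.42 and 28.28 FPKM on day 120 and 20.15, 18.64 and 19.77 FPKM on day 0, and LOC101160304 read 68.49, 73.84 and 71.59 FPKM on day 120 and 62.63, 55.66 and 66.18 FPKM on day 0. In all 3 the day 120 libraries lay above those of day 0, with adjusted p of 0.344 for LOC101162115 and 0.414 for LOC101169735. sec61a1, ssr1, sec24c, sec31a and pdia3 each have such a relative, and how shared reads were split between near-identical copies is uncertain.

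**Figure D5:**
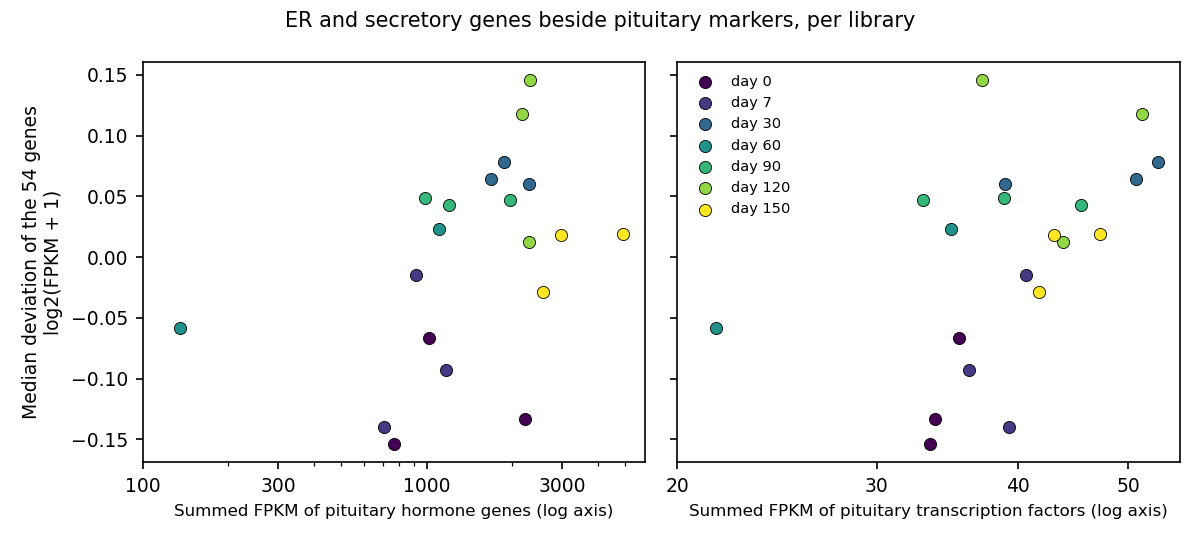
Median deviation of the 54 genes per library, on the log2(FPKM + 1) scale, against the summed FPKM of 5 pituitary hormone genes (left) and 5 pituitary transcription factors (right), both on log axes and coloured by day. Day 0 replicate 2 has a high hormone sum (2218 FPKM, of which pomc is 1997.72 FPKM) with a low deviation (-0.133). The median deviation of the hormone genes themselves is -0.47 in that library. Day 120 replicate 3 has the highest deviation of the 54 genes (0.146) with a middling transcription factor sum (37.18 FPKM).

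Pituitary markers also averaged higher on days 30 and 120 than on day 0. Against day 0, the 4 tested hormone genes had a median log2 difference of 1.831 for day 30 and 2.489 for day 120. All 4 were positive each time, against 53.7% and 55.1% of all genes. On day 120, 1 of the 4 passed the adjusted threshold (limma, adjusted p 0.0167), against 0.0314% of all genes. For day 120 against day 7, 2 of the 4 passed (smallest adjusted p 0.0102), against 0.188%. Their sums, in which pomc weighs heavily, hide part of this. The hormone genes summed to 762.8, 2218 and 1016 FPKM on day 0, 1871, 1679 and 2296 FPKM on day 30, and 2165, 2283 and 2301 FPKM on day 120. The 5 pituitary transcription factors, of which 4 reached a mean of 1 FPKM, summed to 33.43, 33.78 and 35.43 FPKM on day 0, 53.09, 50.85 and 38.91 FPKM on day 30, and 51.42, 43.8 and 37.18 FPKM on day 120, with no overlap between day 0 and either later day. On day 150 the hormone sum was higher still, at 2553, 4905 and 2963 FPKM, but pomc alone made up 2320.14, 4420.34 and 2191.67 FPKM of it. For day 150 against day 120, the 4 tested hormone genes had a median log2 difference of -1.027 with 1 of 4 positive. The 4 tested pituitary transcription factors changed little, with a median of 0.03, 3 of 4 positive and a smallest adjusted p of 0.915 (limma). Among all genes, 50.8% were positive in that comparison. The 54 genes stood lower on day 150 than on day 120. The hypothalamus markers had a median log2 difference of 0.245 for day 120 against day 0, with 13 of 16 positive, against 55.1% of all genes. They summed to 857.2 to 1041 FPKM on day 120 and 673.6 to 814.4 FPKM on day 0. Single neuropeptide genes weigh heavily in these sums. LOC101160739, matched as oxt, read 492.41, 344.75 and 454.69 FPKM on day 120 and 251.41, 289.01 and 345.34 FPKM on day 0. npy read 160.38, 214.5 and 283.93 FPKM on day 120 and 218.37, 216.94 and 248.42 FPKM on day 0, which overlap. With the mean log2 level of the 4 pituitary transcription factors as a covariate, the median difference of the 54 genes against day 0 was 0.16 for day 30, 0.143 for day 60, 0.157 for day 90, 0.187 for day 120 and 0.085 for day 150. Markers of other cell types differed too. For day 120 against day 0, the 3 microglia and leukocyte markers had a median log2 difference of -0.618 with 0 of 3 positive, summing to 102.1 to 148 FPKM on day 120 and 176.9 to 217.3 FPKM on day 0, and the 5 vessel markers had a median of 0.272 with 3 of 5 positive, summing to 38.35 to 41.5 FPKM on day 120 and 30.34 to 34.66 FPKM on day 0. For day 150 against day 120, the median was -0.245 for 5 oligodendrocyte markers with 0 of 5 positive, -0.23 for the vessel markers with 1 of 5 positive and -0.195 for 4 markers of astroglia and ependyma with 1 of 4 positive. Their summed levels were 173.3 to 342.9 FPKM on day 150 and 290.4 to 536.4 FPKM on day 120 for oligodendrocytes, 27.65 to 37.39 FPKM on day 150 and 38.35 to 41.5 FPKM on day 120 for vessels, and 1440 to 1772 FPKM on day 150 and 1686 to 2087 FPKM on day 120 for astroglia and ependyma. The part of these markers in the differences of the 54 genes was not tested.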

How the data were processed

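RNA-seq of 20 medaka brain samples on 7 days was used as 1 table of FPKM values per gene, deposited by the authors. The submitters' processing notes name RSEM (1.2.12) and Bowtie2 (2.2.5), with genome build and annotation not given in the sources used here. Of 22615 gene identifiers, 21722 matched RefSeq (assembly ASM223467v1), used for names only, including all 54 genes described here. The 54 genes, their roles and the lists were chosen with earlier results of these data known, and dnajc30 was set apart after its description was seen.

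The 15947 genes averaging 1 FPKM or more entered limma (3.58.1, run in R 4.3.3) as log2(FPKM + 1), with a mean per day, a prior variance that follows the level, a spread shared by all 20 samples (13 residual degrees of freedom), two-sided tests and Benjamini-Hochberg adjustment over all genes, with a threshold of 0.05. Slopes per 30 days came from a linear model on day. Genes are named in the text as the sensors, hspa5 and hsp90b1, the 3 highest and the 3 smallest in F test p of each role, and those with the largest or smallest differences of a comparison; a few other members are named to complete a role. Library replicates were numbered in accession order, as names only. Alternatives were sample weights, a flat prior, rescaling to equal totals, quantile normalization, a pseudocount of 0.1, filters at 5 FPKM or none, a pituitary transcription factor covariate, spread from the compared days only, other slopes, the F test without day 60, and left-out libraries. The scripts were tested on simulated data. Plots were drawn with matplotlib (3.10.9) and tables made with pandas (2.3.3) and numpy (2.4.6) under Python (3.11.15).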

Additional observations from a re-analysis of the deposited data

How the results depend on the processing

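In 372 fits over the 12 comparisons and all settings, 0 had any of the 54 genes past the adjusted threshold, and the smallest adjusted p was 0.0542, for day 120 against day 7 without day 90 replicate 2. No paired analysis was possible because the labels give the samples no replicate numbers. For day 120 against day 0, the median log2 difference of the 54 genes ran from 0.15 to 0.232 over 30 settings, with 44 to 53 genes positive. For day 30 it ran from 0.16 to 0.199, for day 90 from 0.135 to 0.187 and for day 150 from 0.076 to 0.143, each against day 0. With a single library left out, the median ran from 0.044 to 0.139 for day 60 against day 0, from 0.13 to 0.219 for day 120 against day 7 and from 0.004 to 0.079 for day 120 against day 90. Rescaling to the same total gave 0.103 for day 120 against day 7 and a median slope of 0.013. With a single library left out, the number of genes higher at an unadjusted p under 0.05 ran from 11 to 23 for day 30 against day 0, from 12 to 20 for day 90 against day 0, from 17 to 28 for day 120 against day 0 and from 11 to 25 for day 120 against day 7. The pituitary transcription factor covariate made it 9 for day 30, and rescaling made it 10 for day 120 against day 7. Signs turned in small single-gene differences. For day 7 against day 0, xbp1 was 0.02 when rescaled and ran from -0.10 to 0.07 with a library left out, hspa5 from -0.11 to 0.17 and ern1 from -0.05 to 0.15. For day 60 against day 0, atf6 was 0 under quantile normalization, -0.02 with the covariate, -0.08 without day 60 replicate 1 and day 150 replicate 2, and -0.08 to 0.12 with a library left out, while xbp1 was 0.20 with the covariate, 0.18 without that pair and -0.35 to 0.18 with a library left out. ern1 ran from -0.14 to 0.02 for day 60, from -0.04 to 0.12 for day 30 and from -0.13 to 0.02 for day 150, and hsp90b1 from -0.06 to 0.18 for day 150, all against day 0. For day 120 against day 90, hspa5 was 0 under quantile normalization and ran from -0.09 to 0.09, atf6 from -0.08 to 0.05, ern1 from -0.15 to 0.07 and xbp1 from -0.04 to 0.17. The slope of atf6 was 0 over days 7 to 150. The cause was not tested in any of these.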
